A study of Homo sapiens with 6 samples.

Results

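NUMA1 encodes NuMA, the protein pulled down in these libraries, and 9 further genes encode proteins that work with it at the cell cortex or on the spindle. The promoter windows of these 10 genes, NUMA1, GPSM1, GPSM2, INSC, DYNC1H1, DYNC1I2, DCTN1, PAFAH1B1, RAE1 and TPX2, were taken by symbol from a table of 19957 windows. Each symbol matched 1 window of 2001 bp. Chromatin came from MRC5, a wild-type human lung fibroblast line with no treatment given in the labels. It was precipitated with an antibody to NuMA, also labelled TDIF (2 libraries), or with non-specific immunoglobulin G, IgG (2 libraries), and 1 input library was made for each arm. Promoter counts measure recovered DNA, so they show neither the expression of these genes nor the cell type.

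In mitosis NuMA gathers microtubule minus ends at the spindle poles and binds dynein at the cortex. There GPSM2 (LGN), tethered to Gαi subunits of the membrane, holds NuMA and with it the dynein and dynactin motor that pulls on astral microtubules. INSC binds the same region of GPSM2 as NuMA and links it to the polarity proteins. In interphase NuMA is a nuclear protein, and these libraries ask where on the genome it is found.

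The libraries held 366594 to 1080879 promoter counts, and the median window held 18 to 38. IgG replicate 2 was the shallowest, where 1 count equals 2.73 CPM (a library's promoter counts scaled to a total of 1000000). Counts from 6 to 10 were even in 72.7% to 79.8% of windows, so each read pair may have added 2 counts. Counting intervals cover counting error only and may be too narrow. The labels do not say that replicates came from separate cultures, so p-values may measure technical spread only.

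Sequences of RefSeq promoters (GRCh38.p14) were matched for 9 of the 10 members, all but TPX2. The 4 shown here are those of NUMA1 itself, of INSC, which was lower in NuMA than in IgG ChIP, and of GPSM1 and DYNC1H1, which had the highest NuMA ChIP levels among the members. Each runs 5′ to 3′ on the gene's strand, upstream of both the window centre and the RefSeq start nearest to it. The INSC stretch is cut to 30 bases around its match, because the RefSeq span of INSC begins further upstream, at 15111416, and the stretch lies within it. Capitals mark matches to the motifs searched, given further on. The stretches are chr11:72080695-72080792 (minus strand), chr11:15112345-15112374, chr9:136327289-136327474 and chr14:101964323-101964526 (plus strand), in the order printed.
NUMA1: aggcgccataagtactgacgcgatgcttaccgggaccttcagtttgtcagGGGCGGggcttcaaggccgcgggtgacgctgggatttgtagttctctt
INSC: caagctttgcctTGAGTCAcaggccttctc
GPSM1: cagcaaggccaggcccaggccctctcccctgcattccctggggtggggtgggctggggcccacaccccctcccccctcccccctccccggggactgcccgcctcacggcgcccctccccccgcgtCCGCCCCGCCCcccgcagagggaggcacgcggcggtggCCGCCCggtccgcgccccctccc
DYNC1H1: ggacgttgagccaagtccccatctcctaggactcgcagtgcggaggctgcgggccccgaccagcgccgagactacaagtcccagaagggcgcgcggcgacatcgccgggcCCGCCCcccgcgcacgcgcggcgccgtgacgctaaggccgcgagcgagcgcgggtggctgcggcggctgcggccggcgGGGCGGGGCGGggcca

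The NUMA1 window held few counts in every library. Its window (chromosome 11, 72079694 to 72081694, minus strand) overlapped the window of LRRC51, a neighbour on the plus strand, by 1637 bp, which left 364 bp of its own. At NUMA1, NuMA ChIP held 1 and 0 counts (replicates 1 and 2), IgG ChIP 4 and 5, and the inputs 8 (NuMA arm) and 5 (IgG arm). At LRRC51, NuMA ChIP held 7 and 2 counts, IgG ChIP 10 and 7, and the inputs 20 and 18. In CPM, both NuMA ChIP libraries lay below the other 4 libraries in each of these windows.

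Overlap went with low counts across the whole table. The 16216 windows that overlapped no other held a median of 89 counts in the 2 inputs together, while the 2491 windows with 1 to 500 bp of their own held 3. Medians rose to 28, 57 and 89 counts where 501 to 1000, 1001 to 1500 and 1501 to 2000 bp were unshared. Overlapping windows without any base of their own are in none of these bins. Those of PRKDC and MCM4, for example, each held 0 input counts. Per kilobase of unshared sequence, NUMA1 held 35.7 input counts and LRRC51 held 104.4, beside medians of 25 in windows with 1 to 500 bp of their own and 44.5 in windows without overlap. Counts rose with the unshared bases but not at 1 constant rate, and the printed NUMA1 sequence lies within the stretch shared with LRRC51. The 364 bp that NUMA1 shares with no window lie upstream of its RefSeq start (72080542), beyond the end of the LRRC51 window at 72081330. Whether reads in shared stretches were left uncounted, so that the NUMA1 counts come from those bases alone, was not tested.

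**Figure D1:**
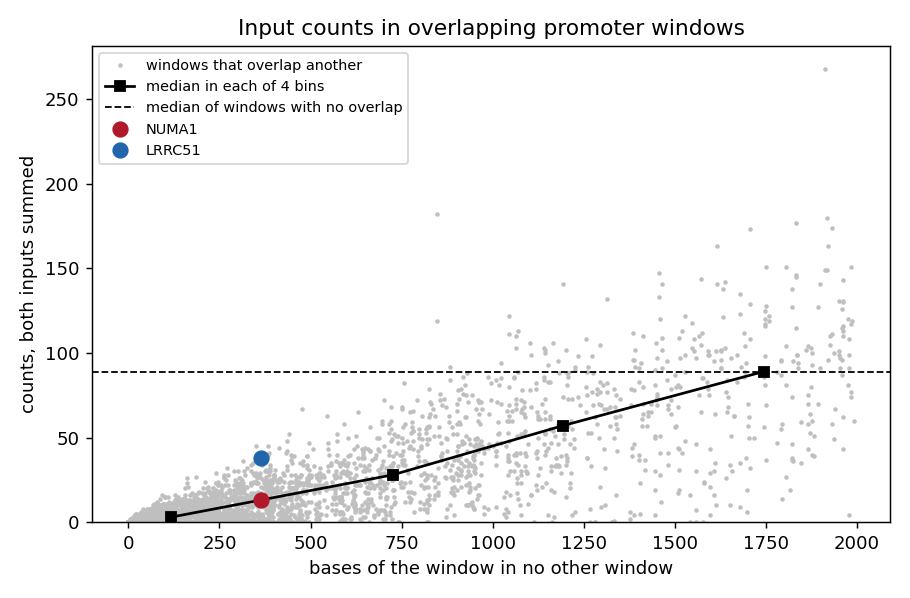
Counts of both inputs summed (y) against the bases of a window that lie in no other window (x), for each of the 3741 overlapping windows (grey), with the median of 4 bins (black squares) and the median of windows with no overlap (dashed, 89 counts). NUMA1 (13 counts) and LRRC51 (38 counts) each have 364 unshared bases.

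NUMA1 fell below the count filter and was not tested in any comparison. Taken as counts, 1 in NuMA ChIP against 9 in IgG ChIP, it was 16.0-fold lower per promoter count, with a 95% exact (Clopper-Pearson) counting interval of 2.21 to 700.4. Against the 13 counts of both inputs it was 14.9-fold lower (2.24 to 633.8). LRRC51, with 9 counts against 17, was 3.35-fold lower than in IgG ChIP (1.41 to 8.54). These intervals leave out the spread between replicates. On the log2 scale the NUMA1 ratio to IgG ChIP was -4.00, and it was -3.31 without NuMA replicate 2 and -2.47 on scaling by the deposited metagene signal in the outermost 500 positions before gene starts and after gene ends (flank scaling). Without NuMA replicate 1, NuMA ChIP held 0 counts and no ratio was computed. By Euclidean distance of log2 CPM over the 6 libraries, the tested windows most like NUMA1 were GOLGA8K (1.37), PGA4 (1.53), VPS29 (1.58), GRPR (1.64) and DNAJC17 (1.66). All 5 had at most 4 counts in either NuMA ChIP library, which follows from choosing them by likeness to NUMA1. VPS29 and DNAJC17 overlap another window by 1537 and 1607 bp.

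The windows of the other 9 members overlapped no other window (0 bp) and all passed the count filter. GPSM1 lay at chromosome 9, 136326475 to 136328475, GPSM2 at chromosome 1, 108874349 to 108876349, and INSC at chromosome 11, 15111423 to 15113423. DYNC1H1 lay at chromosome 14, 101963527 to 101965527, DYNC1I2 at chromosome 2, 171686408 to 171688408, and DCTN1 at chromosome 2, 74391088 to 74393088. PAFAH1B1 lay at chromosome 17, 2592209 to 2594209, RAE1 at chromosome 20, 57350009 to 57352009, and TPX2 at chromosome 20, 31738270 to 31740270. In 8 of the 9, the window centre lay 1 to 246 bp from a RefSeq start of the gene, so the window covered promoter and gene start. The GPSM2 window ended 636 bp upstream of the RefSeq start and covers neither that start nor the RefSeq promoter.

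Against IgG ChIP, 1 of the 9 tested members was higher in NuMA ChIP (PAFAH1B1), 2 were lower (INSC and TPX2) and 6 did not pass. Over all 15727 windows tested, 40.7% were called, 16.8% higher and 23.9% lower, so the members' counts do not set them apart from other promoters. Their median log2 fold change was 0.03, beside -0.04 over all windows. Both NuMA ChIP libraries lay above both IgG libraries at 3 of the 10 members (DYNC1H1, GPSM1 and PAFAH1B1) and below them at 4 (INSC, GPSM2, TPX2 and NUMA1). The same held for 27.2% and 39.5% of windows with a ChIP count. These directions are relative to other promoters: flank scaling moved the median of all windows from -0.04 to 1.29 and made 95.3% of calls higher, in place of 41.2%.

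**Figure D2:**
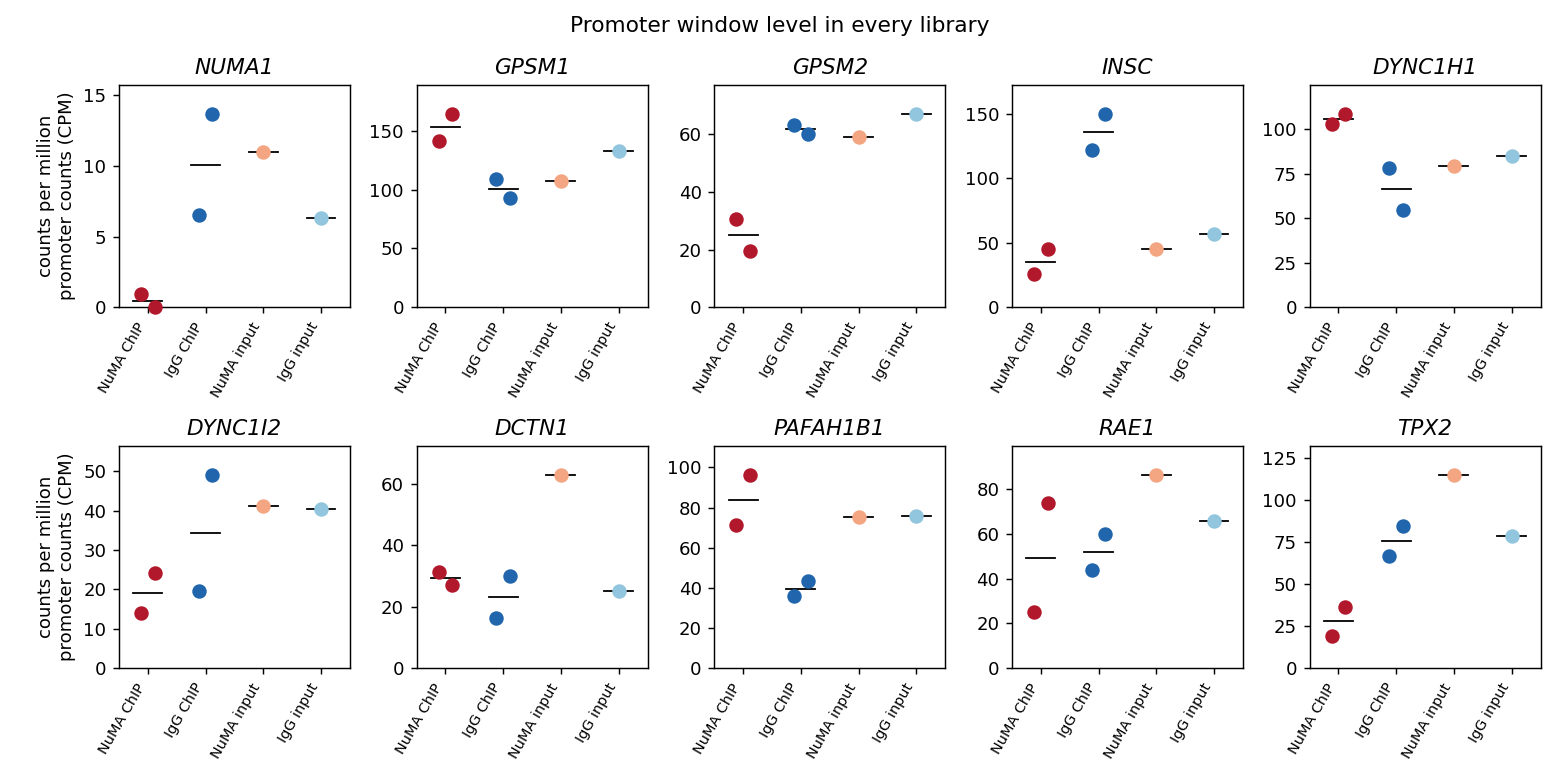
CPM (y, linear from 0, own scale per panel) in each of the 6 libraries (points) for the 10 members, with the group mean as a line. NuMA ChIP lies above IgG ChIP at GPSM1, DYNC1H1 and PAFAH1B1, and below it at NUMA1, GPSM2, INSC and TPX2.

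Of the cortical adaptors, INSC was called lower and GPSM1 and GPSM2 did not pass. NuMA ChIP gave 25.9 and 45.2 CPM (replicates 1 and 2), IgG ChIP 121.7 and 150.03, and the inputs 45.2 (NuMA arm) and 56.9 (IgG arm). IgG ChIP stood apart from the other 4 libraries, while neither NuMA library exceeded an input. NuMA against IgG ChIP gave a log2 fold change of -1.80 ± 0.40 (SE, edgeR adjusted p = 0.000379), 3.49-fold lower. NuMA ChIP against both inputs was at -0.10 ± 0.44 (adjusted p = 0.885), and IgG ChIP against both inputs at 1.53 ± 0.42 (adjusted p = 0.0599), just short of the threshold. INSC was called lower without any 1 of the 4 ChIP libraries, but not on flank scaling (-0.44, adjusted p = 0.539) or with each ChIP group set against its own input (-1.24, adjusted p = 0.287).

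GPSM1 (AGS3) and GPSM2 are paralogues that bind Gαi, and their windows stood on opposite sides. Unlike that of GPSM1, the GPSM2 window does not cover the RefSeq promoter. At GPSM1, NuMA ChIP gave 141.6 and 164.1 CPM, IgG ChIP 108.7 and 92.7, and the inputs 106.9 and 132.7, so both NuMA libraries were the highest of the 6. At GPSM2, NuMA ChIP gave 30.5 and 19.6 CPM, IgG ChIP 63.3 and 60.01, and the inputs 58.9 and 66.97, so both NuMA libraries were the lowest. Neither difference from IgG ChIP passed: the log2 fold change was 0.76 ± 0.45 (SE, adjusted p = 0.161) for GPSM1 and -1.07 ± 0.50 (adjusted p = 0.0733) for GPSM2. Against both inputs they were at 0.81 (adjusted p = 0.196) and -0.82 (adjusted p = 0.176). On total-count scaling GPSM2 was called lower against the inputs (-1.29, edgeR adjusted p = 0.035) and GPSM1 was not called (0.36). On flank scaling GPSM1 passed at 2.08 and GPSM2 was at 0.26, so the sign at GPSM2 depends on the scaling.

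Among the genes of the motor, PAFAH1B1, which encodes the dynein regulator LIS1, was the member called higher. NuMA ChIP gave 71.2 and 96.4 CPM, IgG ChIP 35.7 and 43.6, and the inputs 75.4 and 75.8. Both IgG libraries were the lowest, and the inputs fell within the range of NuMA ChIP. The log2 fold change was 1.24 ± 0.42 (SE, adjusted p = 0.0145), 2.36-fold higher. Against both inputs NuMA ChIP was at 0.58 ± 0.40 (adjusted p = 0.283) and IgG ChIP at -0.82 ± 0.45 (adjusted p = 0.353), neither passing. The call was lost without NuMA replicate 1 (adjusted p = 0.0714), without NuMA replicate 2 (0.0646), in DESeq2 (0.0854) and relative to own inputs (0.201), at log2 fold changes of 1.19 to 1.47. On flank scaling the value was 2.59.

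DYNC1H1, the heavy chain that carries the motor domain, had NuMA ChIP levels of 102.7 and 108.4 CPM. IgG ChIP stood at 77.9 and 54.6 CPM, the NuMA input at 79.5 and the IgG input at 84.7, so NuMA ChIP was above all 4. Its log2 fold change over IgG ChIP was 0.82 ± 0.40 (SE, adjusted p = 0.0877) and over both inputs 0.81 ± 0.42 (adjusted p = 0.126). The first passed without IgG replicate 1 (1.33, adjusted p = 0.0417) and on flank scaling (2.13, adjusted p = 0.00396).

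The intermediate chain gene DYNC1I2 and the dynactin gene DCTN1, whose p150 product binds that chain, showed groups that overlap or inputs that disagree. At DYNC1I2, NuMA ChIP gave 13.9 and 24.1 CPM, IgG ChIP 19.5 and 49.1, and the inputs 41.1 and 40.4, with a log2 fold change over IgG ChIP of -0.69 ± 0.73 (SE, adjusted p = 0.448). At DCTN1, NuMA ChIP gave 31.5 and 27.1 CPM, IgG ChIP 16.2 and 30.01, and the inputs 63.04 and 25.3, with a value of 0.56 ± 0.70 (SE, adjusted p = 0.521). At DYNC1I2 IgG replicate 2 and both inputs were high, both NuMA libraries and IgG replicate 1 were low, and without IgG replicate 2 the value was 0.16. At DCTN1 the 2 inputs differed more than the ChIP groups did. On flank scaling DYNC1I2 was at 0.74 and DCTN1 passed at 1.96 (adjusted p = 0.00709).

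TPX2 encodes a spindle assembly factor, released by Ran, that activates Aurora A. It was the member that fell against both references. NuMA ChIP gave 19.4 and 36.1 CPM, IgG ChIP 66.5 and 84.6, and the inputs 115.1 and 78.3, with both NuMA libraries the lowest of the 6. The log2 fold change was -1.31 ± 0.46 (SE, adjusted p = 0.0187) against IgG ChIP, and -1.37 ± 0.44 (adjusted p = 0.00992) against both inputs, 2.58-fold lower. IgG ChIP did not pass against the inputs (-0.23, adjusted p = 0.821). The call against IgG was lost without NuMA replicate 1 (adjusted p = 0.229), IgG replicate 1 (0.0794) or IgG replicate 2 (0.173), in DESeq2 (0.119) and relative to own inputs (0.153), at log2 fold changes of -1.64 to -0.98. It was also lost on flank scaling, where the value was 0.046. The call against the inputs was lost without NuMA replicate 1 (adjusted p = 0.115), in DESeq2 (0.099) and on flank scaling (0.18).

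RAE1, an mRNA export factor that also binds NuMA on the spindle, had the widest spread between NuMA ChIP libraries in CPM. These libraries gave 24.98 and 73.8 CPM, IgG ChIP 43.8 and 60.01, and the inputs 86.3 and 65.7. The 2 NuMA libraries lay on either side of the IgG pair, and the log2 fold change was 0.03 ± 0.46 (SE, adjusted p = 0.965). Its sign turned negative on total-count scaling (-0.094) and without NuMA replicate 2 (-0.70), and on flank scaling it passed at 1.38.

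**Figure D3:**
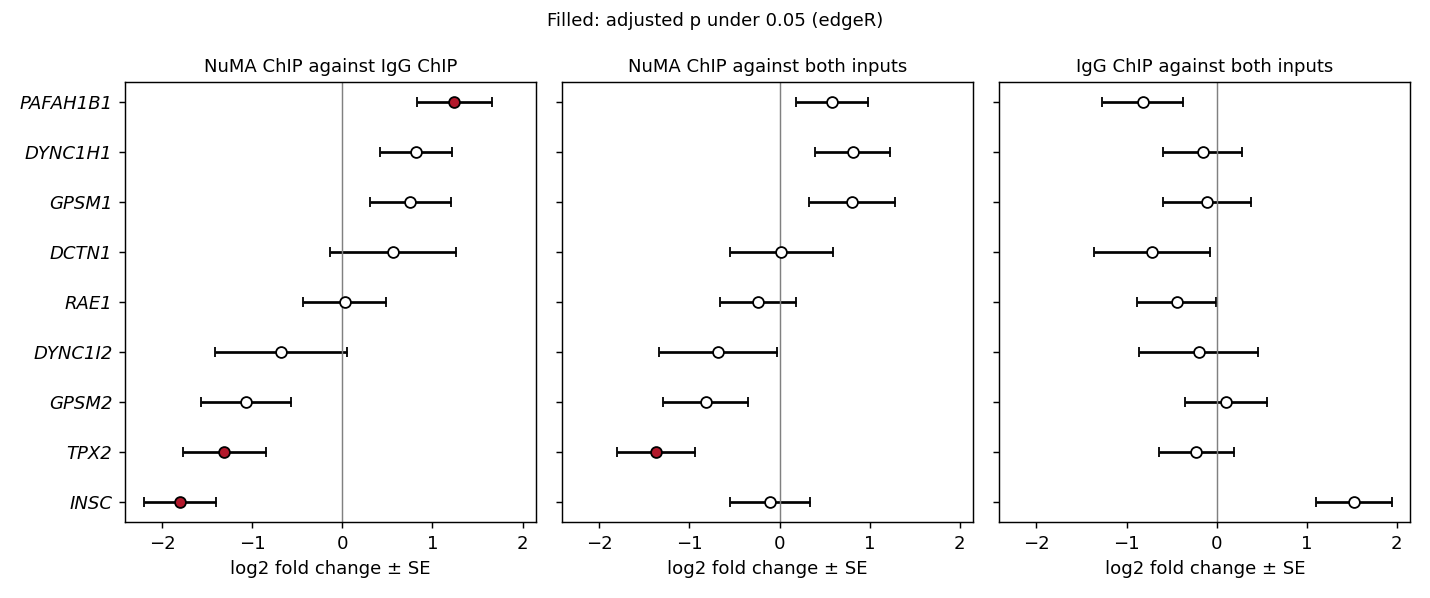
log2 fold change with its SE (x) for the 9 tested members (y) in 3 comparisons, filled where the edgeR adjusted p is under 0.05. PAFAH1B1, TPX2 and INSC are filled against IgG ChIP, TPX2 alone for NuMA ChIP against the inputs, and none for IgG ChIP against the inputs, where INSC lies at 1.53.

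Against both inputs, NuMA ChIP was called lower at 1 of 9 members (TPX2) and higher at 0, while 29.1% of the 17226 windows tested were called, 11.9% lower and 17.2% higher. No member was higher at an unadjusted p under 0.05 in edgeR or called higher in DESeq2. The shares of all windows by these criteria are not given for the comparisons with inputs, so such counts have no background here. IgG ChIP against both inputs called 0 of 9 members in edgeR, with 1 (INSC) at an unadjusted p under 0.05 and 0 in DESeq2, while 0.302% of all windows were called, 0.238% higher and 0.0639% lower. The comparisons share libraries: both comparisons with inputs use the same 2 input libraries, and each ChIP group also enters the comparison of NuMA with IgG.

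Set over the mean of both inputs in CPM, the NuMA ChIP levels of the members ran from 1.29 ± 0.049 (SD, n = 2) at DYNC1H1 to 0.054 ± 0.076 at NUMA1. GPSM1 (1.28 ± 0.13) and PAFAH1B1 (1.11 ± 0.23) followed DYNC1H1, and each overlapped its neighbour in this order. Then came INSC (0.70 ± 0.27), whose libraries lay below those of PAFAH1B1, followed by DCTN1 (0.66 ± 0.07), RAE1 (0.65 ± 0.45), DYNC1I2 (0.47 ± 0.18), GPSM2 (0.40 ± 0.12) and TPX2 (0.29 ± 0.12). Neighbours from INSC to TPX2 overlapped, TPX2 was clear of NUMA1, and 1 RAE1 library (0.97) exceeded the lower PAFAH1B1 library (0.94). IgG ChIP over input lay between 0.52 ± 0.22 at DCTN1 and 1.16 ± 0.58 at NUMA1 for 9 members, and at 2.66 ± 0.39 for INSC. These ratios leave out TMM, so a value under 1 need not mean a loss against the inputs. With TMM, the fits put NuMA ChIP over both inputs at 1.76-fold for DYNC1H1, 0.93 for INSC, 1.01 for DCTN1 and 0.39 for TPX2.

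CpG content went with the difference from IgG ChIP across the tested windows with a promoter sequence, and the members are set beside it without a test. The 300-base RefSeq promoters held 47 CpG dinucleotides at PAFAH1B1, 44 at DYNC1H1, 39 at GPSM1, 33 at RAE1, 26 at DCTN1, 17 at DYNC1I2 and 5 at INSC, against a median of 21 over 22198 promoters of protein-coding genes. The NUMA1 promoter held 25. Across tested windows, the bin with 0 to 10 CpGs (2700 windows) had a median log2 fold change over IgG ChIP of -1.66, and 58.4% were called lower. The bin with 34 to 67 CpGs (2470 windows) had a median of 0.90, and 40.4% were called higher. The bins between them, with 11 to 23 and 24 to 33 CpGs, had medians of -0.09 and 0.45.

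INSC (-1.80) lay in the bin with the fewest CpGs, and PAFAH1B1 (1.24), DYNC1H1 (0.82) and GPSM1 (0.76) in that with the most. DYNC1I2 (-0.69) was below the median of its bin of 11 to 23 CpGs. In the bin of 24 to 33 CpGs, DCTN1 (0.56) was above the median and RAE1 (0.03) below it. NUMA1, with 25 CpGs, would also fall in that bin but was not tested. Its log2 count ratio of -4.00 rests on 1 count against 9, without TMM, so it cannot be set against that median. Its RefSeq promoter lies within the stretch shared with LRRC51. Against the inputs the outer bins held 0 to 9 and 33 to 67 CpGs. There IgG ChIP ran the other way, with medians of 0.78 in the bin with the fewest CpGs and -0.29 in that with the most. NuMA ChIP against the inputs rose from a median of -0.64 to 0.67 between the same bins. The part of base composition in the members' differences was not tested. The RefSeq start used at PAFAH1B1 and RAE1 lay 445 and 533 bp from the window centre, and the GPSM2 promoter, with 27 CpGs, lay outside its window.

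**Figure D4:**
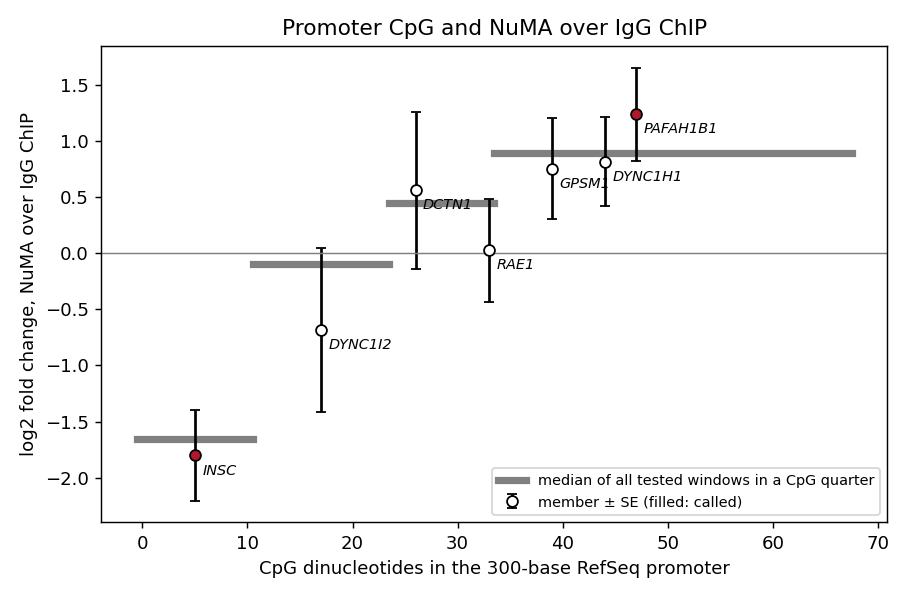
log2 fold change of NuMA over IgG ChIP (y, ± SE) against CpG dinucleotides in the RefSeq promoter (x) for the 7 tested members whose promoter lies in the window, filled where called. Grey bars span each of 4 bins of all tested windows by CpG at its median, from -1.66 to 0.90.

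Motifs were searched on both strands of the same 300 bases. The GC box GGGCGG was found in 7 of 9 members (56.3% of promoters), all but INSC and RAE1, with 5 matches each at GPSM1 and PAFAH1B1, 4 each at DYNC1H1 and GPSM2, 3 at DCTN1, 2 at NUMA1 and 1 at DYNC1I2. The CCAAT box (CCAAT) was found at NUMA1, GPSM2 and DYNC1I2 (34.7% of promoters), and the TATA box (TATAAA) at DYNC1I2 (9.47%). The cell cycle genes homology region (CHR) element TTTGAA was found at GPSM2 (12.4% of promoters), and the AP-1 site TGANTCA at INSC (6.15%), in capitals in the INSC sequence above. PAFAH1B1 held the cyclic AMP response element TGACGTCA (2.26% of promoters) and the NRF1 core GCATGCGC (3.74%). Neighbouring GC boxes can overlap each other. Matches describe the letters only.

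Other genes of the machinery were followed in 3 lists. Of 20 cortical polarity genes, 18 were tested, and 6 were higher in NuMA than in IgG ChIP, 0 were lower and 12 did not pass, with a median log2 fold change of 0.62. Over all windows, 16.8% were higher and 23.9% lower, with a median of -0.04. AFDN, the junction protein afadin, was at 109.2 and 78.3 CPM in NuMA ChIP against 37.3 and 13.6 in IgG ChIP (1.98 ± 0.44 SE, adjusted p = 0.000365). PARD3, a core polarity scaffold, was at 96.2 and 76.8 CPM against 37.3 and 16.4 (1.80 ± 0.44 SE, adjusted p = 0.0011). Both genes also passed against the inputs, at 1.72 and 1.37. SAPCD2, which acts on the cortical placing of GPSM2, rose by 1.58 over IgG ChIP and did not pass against the inputs (0.68).

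The lowest of that list were the Gαi genes GNAI2 (-0.31, adjusted p = 0.591) and GNAI3 (-0.92, adjusted p = 0.176) and the scaffold gene DLG1 (-1.45, adjusted p = 0.128). None of these passed against IgG ChIP. Against the inputs GNAI3 (-1.26) and DLG1 (-2.00) were lower in NuMA ChIP. Against IgG ChIP, 0 of the 18 were lower at an unadjusted p under 0.05 in edgeR, and 0 were called lower in DESeq2. Of all 15727 windows, 7972 had such an edgeR p in either direction, and DESeq2 called 2117 lower. The count of 6 higher genes was 1 without NuMA replicate 1, 7 without NuMA replicate 2, 6 without IgG replicate 1 and 4 without IgG replicate 2. It was 13 on flank scaling and 0 relative to own inputs. Over all windows, 7651 of 15727 were higher and 381 lower on flank scaling. Relative to own inputs, 199 of 17226 were higher and 405 lower. These shares of all windows also stand beside the lists below.

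Of 30 dynein, dynactin and adaptor genes, 28 had a window and 22 were tested. NuMA ChIP was higher at 3, lower at 3 and not called at 16, beside 16.8% higher and 23.9% lower over all windows, and the list's median was 0.51. The light chain gene DYNLL2 (1.46 ± 0.41 SE, adjusted p = 0.00366) and the adaptor gene BICD2 (1.43 ± 0.45 SE, adjusted p = 0.00867) were higher, while the light chain gene DYNLT3 was at 1.30 (adjusted p = 0.114). Neither DYNLL2 (0.63, adjusted p = 0.241) nor BICD2 (0.94, adjusted p = 0.0785) passed against the inputs. DCTN3, the p24 subunit of dynactin, held 6 and 8 NuMA ChIP counts against 28 and 17 IgG counts and was lower (-2.27 ± 0.76 SE, adjusted p = 0.0151), also against the inputs (-2.09). SPDL1 (-1.91, adjusted p = 0.0679), a kinetochore adaptor, and DCTN4 (-2.09, adjusted p = 0.0765), with 8 and 0 NuMA counts, did not pass against IgG ChIP. Against the inputs DCTN4 was lower (-3.21, adjusted p = 0.00141) and SPDL1 did not pass (-1.60, adjusted p = 0.179). The 3 and 3 calls were 1 and 0 without NuMA replicate 1, 3 and 1 without NuMA replicate 2, 2 and 0 without IgG replicate 1, 1 and 1 without IgG replicate 2, 14 and 0 on flank scaling, and 0 and 0 relative to own inputs.

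Of 40 spindle assembly genes, 39 had a window and 29 were tested, with 1 higher, 3 lower and 25 not called, beside 16.8% higher and 23.9% lower over all windows. The list's median was -0.11. CKAP5, the microtubule polymerase ch-TOG, was higher (1.36 ± 0.49 SE, adjusted p = 0.0232), and did not pass against the inputs (0.35, adjusted p = 0.574). The importin gene KPNA2 (1.22, adjusted p = 0.0633) and the pericentrin gene PCNT (1.19, adjusted p = 0.257), whose window overlaps another by 1756 bp, did not pass. AURKB, a mitotic kinase, held 6 and 9 NuMA ChIP counts against 32 and 23 IgG counts and was lower (-2.48 ± 0.70 SE, adjusted p = 0.00397), as were the augmin gene HAUS5 (-1.75) and the nucleoporin gene NUP107 (-2.49). Against the inputs AURKB (-2.50) and HAUS5 (-1.67) were lower and NUP107 did not pass (-2.27, adjusted p = 0.0568). Calls were 0 and 0 without NuMA replicate 1, 0 and 3 without NuMA replicate 2, 3 and 3 without IgG replicate 1, 0 and 1 without IgG replicate 2, 11 and 0 on flank scaling, and 0 and 1 relative to own inputs.

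Against both inputs, the polarity list held 5 higher and 2 lower genes of 18 tested, the dynein and dynactin list 4 and 4 of 23, and the spindle assembly list 0 and 5 of 29. Over all windows 17.2% were higher and 11.9% lower. In the spindle list 0 genes were higher at an unadjusted p under 0.05 in edgeR and 0 were called higher in DESeq2, again without the share of all windows. The medians were 0.63, 0.19 and -0.34, beside 0.03 over all windows.

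**Figure D5:**
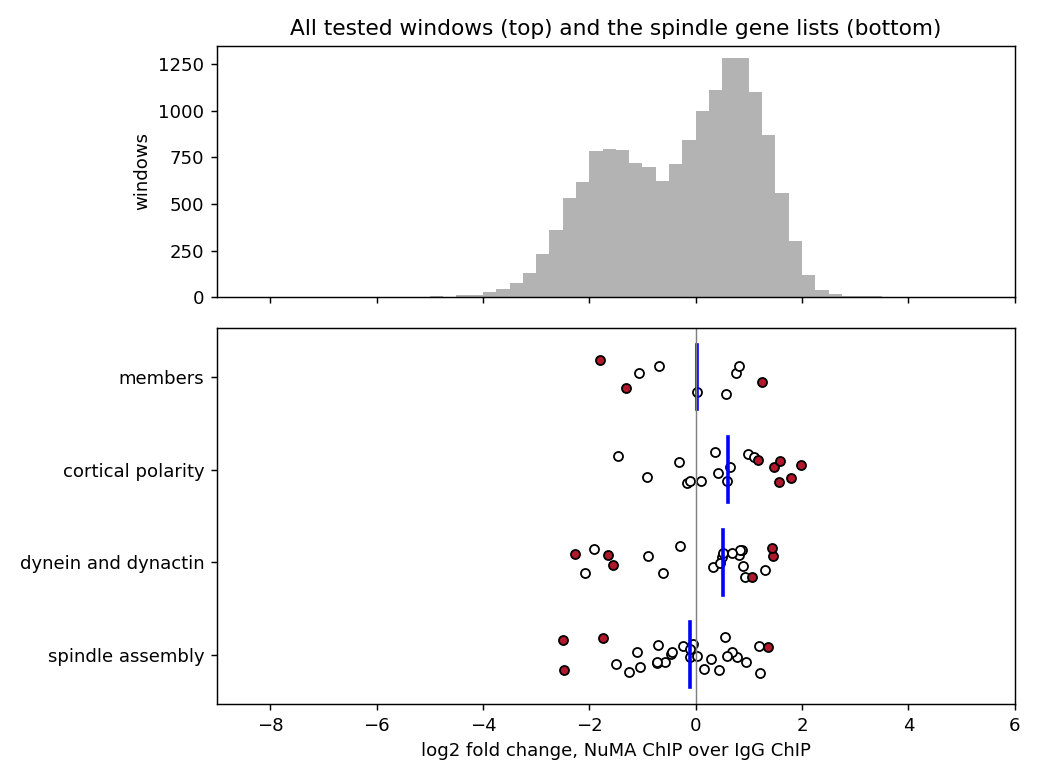
Top, number of tested windows (y) by log2 fold change of NuMA over IgG ChIP (x) for all 15727. Bottom, the members and 3 lists on the same axis, filled where called, vertical jitter only for display, with the list median as a blue line (0.03, 0.62, 0.51 and -0.11 from top to bottom).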

How the data were processed

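ChIP-seq counts from 6 libraries were used: 2 of NuMA ChIP, 2 of IgG ChIP and 1 input of each arm. The promoter table deposited by the authors holds raw counts in windows of 2001 bp, with no normalization, per the file headers. The deposited metagene table holds summed signal around gene starts and ends, and was used only for an alternative scaling. The submitters' processing notes list hg38 and, without roles, featureCounts, MACS2, bedtools and BWA 0.7.17-r1188. How reads in overlapping windows were counted is not given in the sources used here.

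Windows carry Ensembl identifiers only. Each was named after the protein-coding gene whose RefSeq 5′ end (GRCh38.p14) lay closest on its strand, within 1000 bp, or within 3000 bp where no window lay closer to that gene. This named 89.7% of windows, against 3.13% matched within 1000 bp after a shift of 20000 bp.

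Windows passing filterByExpr (minimum count 10) were scaled by TMM and tested by quasi-likelihood in edgeR 4.0.16 (R 4.3.3). P-values were adjusted by Benjamini-Hochberg over all windows tested, at a threshold of 0.05. An SE is the size of a log2 fold change divided by the square root of F. The comparison of NuMA with IgG ChIP was fitted on the 4 ChIP libraries, and those with the averaged inputs on all 6. An input has no replicate, so its variance is taken to be that of the ChIP groups. CPM divides a count by its library's promoter total, without TMM. Alternatives were DESeq2 1.42.0, other scalings, no filter, own inputs, a replicate block and leaving out each ChIP library. On simulated data, 100 windows were changed 4-fold and 100 others 2-fold. The fit of NuMA against IgG ChIP recovered 47% and 4% of them (15217 windows). The fit against both inputs recovered 50% and 2% (16946 windows), and 11.9% of its calls were false, above the 5% intended. In the data themselves 40.7% and 29.1% of windows were called, far more than were changed in the simulation. The adjusted threshold is then less strict, so these recovered shares need not hold for the data.

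The members and lists were chosen with earlier results of these data known. All 10 members are named, with the 3 highest and 3 lowest tested windows by log2 fold change over IgG ChIP in each of 3 other lists and the 5 tested windows nearest to NUMA1.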

Additional observations from a re-analysis of the deposited data

How the results depend on the processing

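The 3 members called for NuMA against IgG ChIP were 1 in DESeq2, 5 on scaling by metagene flank signal, 0 relative to own inputs, and 1 to 3 when each ChIP library was left out. Called windows numbered 6401, and 3751 in DESeq2, 604 relative to own inputs and 2041 to 5781 with a library left out (2041 without NuMA replicate 1 and 2964 without IgG replicate 2). Against both inputs, the 1 member called was 0 in DESeq2, 2 on total-count scaling, 0 on flank scaling, and 0 to 1 with a NuMA library left out. For NuMA against IgG ChIP, flank scaling called 8032 of all 15727 windows, 7651 higher and 381 lower, beside the 5 members. Signs turned on flank scaling at GPSM2 (0.26), DYNC1I2 (0.74) and TPX2 (0.046). They turned without IgG replicate 2 at DYNC1I2 (range with a library left out -1.02 to 0.16), and relative to own inputs at DCTN1 (-0.51). At RAE1 the value was -0.094 on total-count scaling, -0.70 without NuMA replicate 2 (range -0.70 to 0.59), -0.083 with the replicate block and -0.13 relative to own inputs. In DESeq2 the calls higher and lower were 1 and 1 in the dynein list and 0 and 2 in the spindle list. The causes were not tested.

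The labels share replicate numbers without saying what they pair. With the replicate block 4 members and 7607 windows were called, GPSM1 being added (adjusted p = 0.0388). Calls higher and lower were then 6 and 5 in the dynein list and 2 and 5 in the spindle list. The correlation of replicate differences between NuMA and IgG ChIP was 0.17 over 15446 windows. TMM on the totals of the windows kept, added after seeing the data, called 3 members. Of 99 alternative values for single tested members, 73 kept sign and side of the threshold, which includes members that were uncalled and stayed so. Of 11 alternatives each, the call was kept in 9 at INSC, 7 at PAFAH1B1 and 5 at TPX2. In the simulated data, where few windows were changed, a 2-fold difference was rarely called.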
